A study of Mus musculus with 22 samples.

Results

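These data compare the ribosome-bound mRNA of Tsc1-deficient and control Purkinje cells (PCs) in mice that had received rapamycin. The comparison rests on 6 of the 22 libraries of the series, 3 mutant and 3 control TRAP libraries whose labels carry rapamycin, and these were chosen by genotype and treatment label alone. Mutants were Tsc1 fl/fl L7Cre;Rosa26fsTRAP animals, labelled CC, and controls were Tsc1 +/+ L7Cre;Rosa26fsTRAP animals, labelled WW. The labels give only the letters, and the paper gives the genotypes. All animals were C57BL/6 and carried the same Cre, which the L7 (Pcp2) promoter drives in PCs, and the same TRAP allele, in which Cre removes a STOP cassette at Rosa26 and turns on GFP-tagged ribosomal protein RPL10A. In translating ribosome affinity purification (TRAP), antibodies to GFP pull tagged ribosomes, with the RNA on them, out of the cerebellum of a single animal. The other 6 TRAP libraries, 3 of each genotype without rapamycin, are used here only to set the rapamycin comparison beside them, and the 10 libraries of sorted PCs only where a locus needs them. The age of the TRAP animals and the dose and schedule of rapamycin are not given in the sources used here.

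TSC1 and TSC2 form a complex that holds the kinase complex mTORC1 in check. When the complex is lost, mTORC1 stays active and drives ribosome production, translation and growth, and rapamycin, bound to the protein FKBP1A, blocks mTORC1. PCs are the large GABA neurons that carry the only output of the cerebellar cortex, and they are known for strong calcium signalling through the IP3 receptor.

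The authors deposited, for each of 66494 loci, an estimated fragment count divided by a size factor for each library, and levels below are log2(value + 1) of these signals. A locus was tested where its mean level over the 6 libraries was 2 or more, and it is said to have risen or fallen where the unadjusted limma p was under 0.01 and the fold change over 2, the thresholds of the study. Values below are limma fits, and p-values printed from them are Benjamini-Hochberg adjusted, so a locus can pass the thresholds at a high adjusted p. Fold changes are differences of these log2 levels, and the pseudocount of 1 pulls those of low loci towards 0. In bulk RNA, fewer cells of a type and less RNA in each cell cannot be told apart.

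The libraries differed between the genotypes in ways that touch every result below. Controls held 4.52, 4.28 and 4.89 M fragments and mutants 2.47, 3.37 and 3.16 M, so that each control was deeper than each mutant (exact two-sided permutation test p = 0.1, the smallest that 3 animals against 3 allow). The controls nonetheless detected fewer loci, with 7939, 9919 and 10350 above a deposited value of 0.1, against 14242, 11133 and 12927 in mutants (exact permutation test p = 0.1). A locus with a deposited value of 0.1 or less is called listed at 0 here. Among the 8728 loci tested, 2306, 1144 and 855 were listed at 0 in controls 1, 2 and 3, and 110, 541 and 150 in mutants 1, 2 and 3. In libraries without rapamycin these same loci were at 0 in 124 to 530 cases in controls and 70 to 348 in mutants. Across loci, pairs of controls correlated at 0.429 to 0.537 and pairs of mutants at 0.727 to 0.851. A gene that every cell needs, the proteasome subunit Psma3, was listed at 0 in control 1 and stood at 4.35 and 4.68 in controls 2 and 3, so a 0 is given only as listed, with the value of each library and no fold change against a group at 0. The part of depth and of zeros in the genotype differences was not tested.

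**Figure D1:**
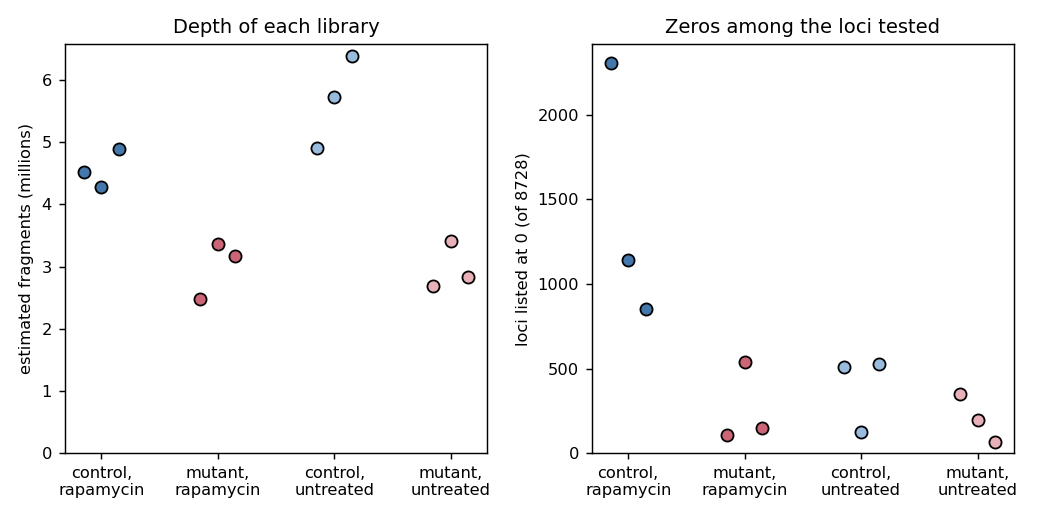
Estimated fragments in M (left) and the number of the 8728 tested loci listed at 0 (right) in each of the 12 TRAP libraries, 1 point per library and 3 per group. The 3 control libraries under rapamycin were deeper than the 3 mutant libraries, and they listed the most loci at 0, with 2306 in control 1.

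Under rapamycin, few loci passed the thresholds between mutant and control TRAP, and most of those that did were higher in mutants. Of 8728 loci, 107 (1.23%) passed the thresholds, 84 of them higher in mutants (0.962%) and 23 lower (0.264%). Only 1 locus (0.0115%) had an adjusted p under 0.05, while 480 (5.5%) had an unadjusted p under 0.05, of which 339 were higher (3.88%) and 141 lower (1.62%). Differences were above 0 at 63.0% of loci and below 0 at 37.0%. The groups did not overlap at 1027 loci (11.8%). Where no locus differs, an unadjusted p under 0.01 or 0.05 is expected at a share of 0.01 or 0.05 of loci. A lack of overlap of 3 against 3 is then expected at a share of 0.1. The counts lay near these shares, so a call or a lack of overlap at a single gene is weak evidence. The split between higher and lower depended on scaling. It was 78.5% higher with the deposited size factors and 46.2% higher after rescaling the libraries to equal totals, and the median difference over all loci moved from 0.32 to -0.09. Every list below is therefore read against the median of 0.32.

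The number of calls also turned on single libraries. It was 300, 331 and 430 without control 1, 2 and 3, and 38, 36 and 38 without mutant 1, 2 and 3. The loci that passed were mostly ones that some control library listed at 0. Of the 84 increases, 79 had at least 1 control at 0 and 15 had all 3 at 0, and of the 23 decreases, 12 had at least 1 mutant at 0. A locus with all controls at 0 could pass the filter on low values only through high mutants, so those 15 had to differ. Of these 15 loci, 12 were above 0 in all 3 control libraries without rapamycin. Loci with a mean level of 5 or more had a median difference of 0.07 (2635 loci), and lower loci one of 0.59.

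**Figure D2:**
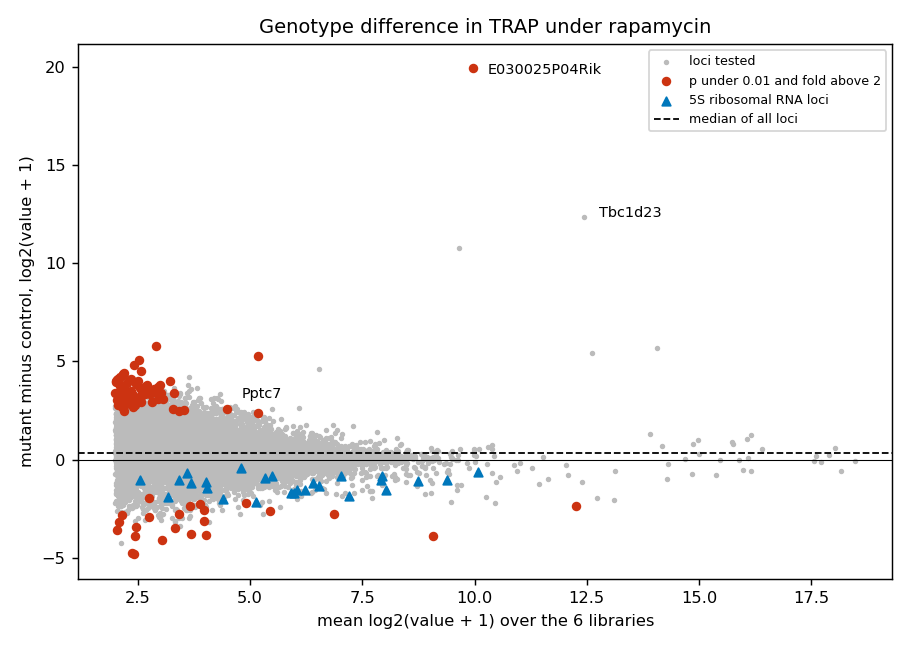
Difference between mutant and control TRAP under rapamycin (y, log2(value + 1)) against the mean level over the 6 libraries (x), 1 point per tested locus, with loci past the thresholds in red and 5S ribosomal RNA loci as blue triangles. The dashed line marks the median of 0.32 over all 8728 loci, 63.0% of the points lie above 0, and E030025P04Rik stands apart at a level of 19.9 in mutants.

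Names could be given only to loci that the study's supplementary files pair with a gene, and of the 107 loci 6 had one. All of these were higher in mutants. They were Pitrm1, Orai2, Msrb1, Pptc7, Tmem74bos and, on the opposite strand to its gene, E030025P04Rik. Pitrm1, Orai2, Msrb1 and the E030025P04Rik locus are among the 15 loci with all controls at 0, which had to differ. Their p-values and lack of overlap under rapamycin are therefore no evidence of a difference.

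Pitrm1 encodes a protease of the mitochondrial matrix that degrades presequences and other peptides. Its locus, within the gene at chr13:6548149-6580515 on the plus strand (GRCm38), was listed at 0 in all 3 controls under rapamycin and stood at 4.99, 5.28 and 4.93 in mutants 1, 2 and 3. All 3 mutants were thus above all 3 controls, at a locus that had to differ to be tested (limma adjusted p = 0.0616). Without rapamycin the controls were not at 0. They had 4.53, 4.26 and 3.73, against 5.22, 5.21 and 4.95 in mutants. The mutants under rapamycin therefore lay at the level of untreated mutants, and the controls under rapamycin were the group that stood apart (interaction of genotype and rapamycin, limma adjusted p = 0.034). The interaction no longer passed the unadjusted threshold after rescaling to equal totals (3.33, against 4.11 with the deposited scaling). For interactions that rescaling raised the values of untreated mutant 3 strongly, as given below.

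Orai2 encodes a pore subunit of store-operated calcium channels at the plasma membrane. At chr5:136147459-136170713 (minus strand), it was listed at 0 in all 3 controls and had 4.02, 4.35 and 4.69 in mutants, so the groups did not overlap (limma adjusted p = 0.0893). Untreated controls spread from 1.43 over 2.05 to 4.36 and untreated mutants from 2.78 over 3.64 to 4.15, and these groups overlapped (limma adjusted p = 0.773). The interaction had an adjusted p of 0.364, and it no longer passed the unadjusted threshold without mutant 2 (3.44) or mutant 3 (3.28), where 3.44 was the fitted value over all libraries. It was also lost after rescaling to equal totals (2.68, or 2.88 without the 10 highest loci), with a pseudocount of 10 (1.23) and with an intensity trend.

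Msrb1 encodes a selenoprotein that reduces oxidised methionine. It lies at chr17:24736642-24742778 (plus strand) and was listed at 0 in the 3 controls, with 3.57, 4.41 and 4.41 in mutants (limma adjusted p = 0.112). It was also the only correctly oriented named locus that passed the thresholds in both pairs of groups. Without rapamycin, controls had 0, 1.53 and 1.42 and mutants 2.78, 3.53 and 3.84 (limma adjusted p = 0.292). The genotype order was the same with and without rapamycin, with no overlap in either. Under rapamycin that order had to arise for the locus to be tested, so it is no evidence that the difference was kept.

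Pptc7 encodes a phosphatase of the mitochondrion. It lies at chr5:122284365-122324281 (plus strand), and it was the only named call that every one of the 6 libraries detected. The controls had 4.19, 2.85 and 2.57 and the mutants 5.83, 5.37 and 6.11. Every mutant was above every control, and the mean level was 5.77 ± 0.37 (SD, n = 3) in mutants against 3.20 ± 0.87 in controls, a log2 fold change of 2.57 ± 0.64 (SE; limma adjusted p = 0.75). Untreated libraries of both genotypes lay between 5.31 and 5.82 (log2 fold change -0.05, limma adjusted p = 0.982), so that it was the controls under rapamycin that were low (interaction 2.62 ± 0.70, limma adjusted p = 0.319). The interaction no longer passed after rescaling to equal totals (1.82, or 1.97 without the 10 highest loci). The rapamycin difference kept its size but no longer passed the unadjusted threshold without control 2 (2.40) or control 3 (2.26), or without mutant 1 (2.54), 2 (2.77) or 3 (2.40), and it did not pass with equal totals without the 10 highest loci (2.31) or with the replicate block (2.57).

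Tmem74bos is a transcript on the strand opposite to Tmem74b, at chr2:151679361-151686339 (minus strand). Controls 1 and 2 listed it at 0 and control 3 had 2.03, against 3.57, 3.38 and 3.35 in mutants. The groups did not overlap (limma adjusted p = 0.75), and untreated libraries ranged from 2.78 to 4.98 in both genotypes (limma adjusted p = 0.879). The call was lost without control 1 or control 2 (fitted difference 2.42 in both), and also after rescaling to equal totals (2.44, or 2.59 without the 10 highest loci), with pseudocounts of 10 (0.858) and 0.1 (4.97), with an intensity trend or the replicate block (2.76 in both) and with limma-voom (3.57). Because the counting of strand is not stated, reads of the gene on the other strand could add to this locus.

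The single locus with an adjusted p under 0.05 was the one named for E030025P04Rik. The gene lies at chr11:109139291-109144369 (minus strand), and the study's files class the locus as antisense to it, so the gene itself may not be its source. It was listed at 0 in all 6 controls, treated or not. In mutants under rapamycin it had levels of 19.70, 19.91 and 20.16 and held 19.06%, 21.72% and 20.04% of the whole signal of the library (limma adjusted p = 3.5e-05). Untreated mutants had 20.02, 19.89 and 14.60, or 20.2%, 18.9% and 2.89% of the signal, and mutant 3 was the low one. The same locus was detected in all sorted PCs of both genotypes, at 15.46 to 16.95 in mutants and 15.96 to 18.04 in controls (n = 5 each, in a table that the authors scaled separately). A level of 0 in control TRAP thus stood beside a high level in sorted control PCs, and whether the 0 is a failed estimate was not tested. The preparation of sorted and TRAP libraries may differ too.

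A locus overlapping Tbc1d23, chosen after its values were seen, behaved in part alike. Tbc1d23 encodes a Golgi protein that captures vesicles from endosomes, and the gene lies at chr16:57168862-57231504 (minus strand). Controls 1 and 3 listed it at 0 and control 2 had 18.79, which was 11.95% of its signal, while the mutants had 18.35, 18.68 and 18.82. Control 2 lay within the range of the mutants (limma adjusted p = 0.869). The neighbouring Tomm70a, chr16:57121703-57156705 (plus strand), encodes a receptor of the mitochondrial outer membrane for imported proteins. It had 0, 5.15 and 0 in controls and 5.79, 5.71 and 5.10 in mutants (limma adjusted p = 0.868), and the untreated controls listed it at 0 in all 3 libraries, against 5.59, 6.34 and 6.41 in mutants. At both loci control 2 was the treated control above 0.

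**Figure D3:**
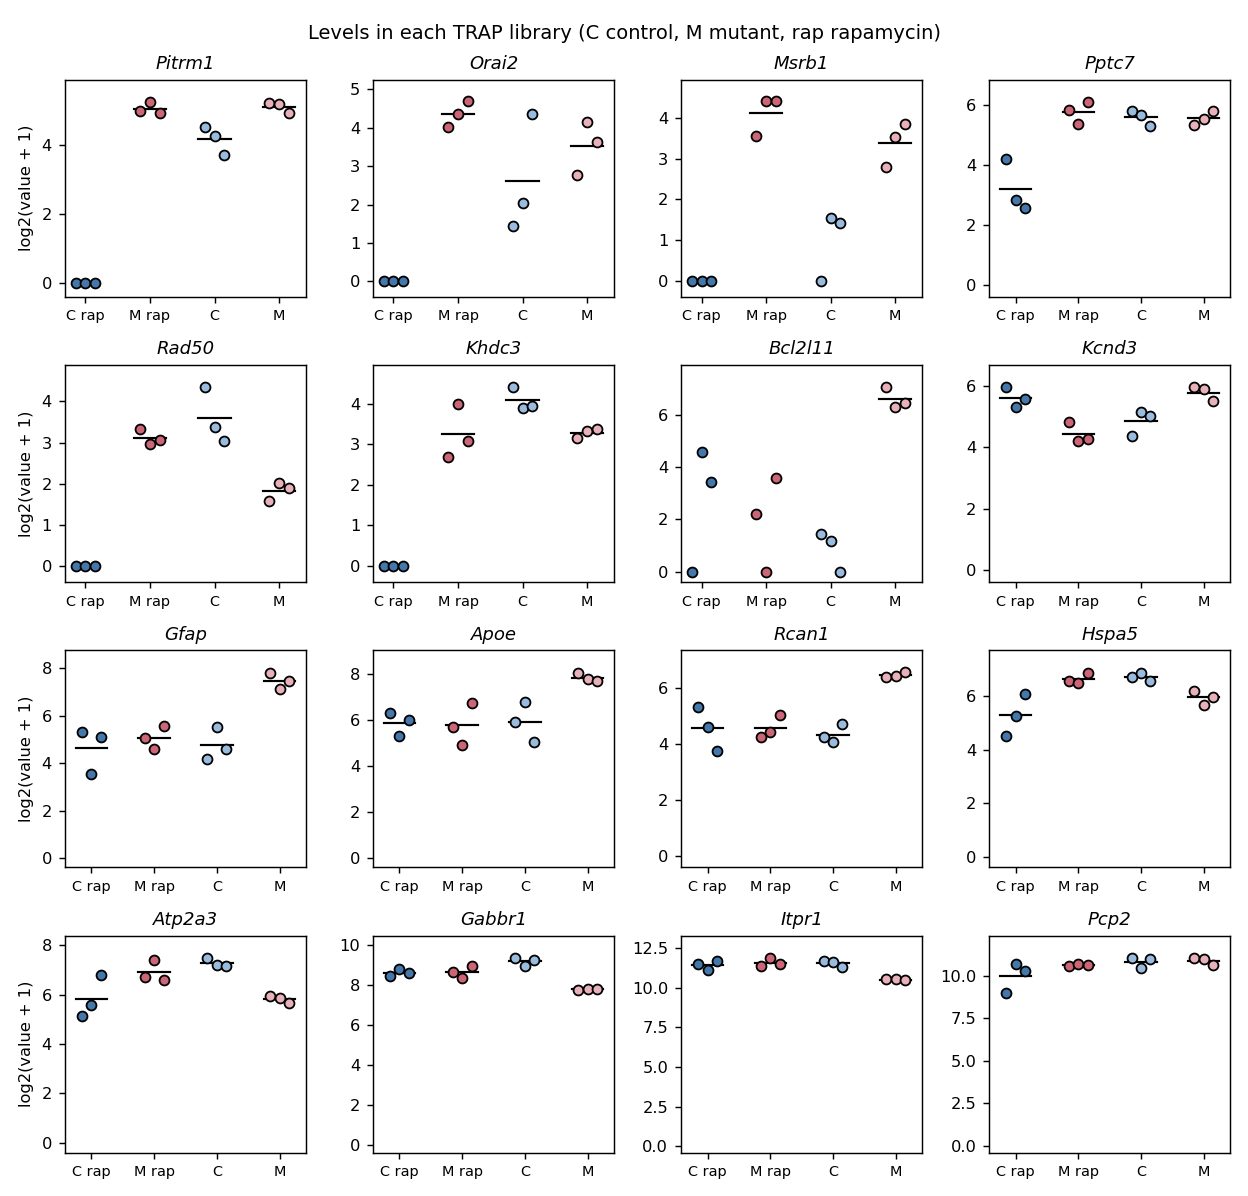
Level, as log2(value + 1), of 16 genes in each of the 12 TRAP libraries, 1 point per library, for controls and mutants with rapamycin (C rap, M rap) and without (C, M), with a line at the group mean only where no library is listed at 0. Pitrm1, Orai2, Msrb1, Rad50 and Khdc3 were at 0 in all 3 controls under rapamycin, while Bcl2l11, Gfap, Apoe and Rcan1 were higher in each of the 3 untreated mutants than in any of the other 9 libraries.

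Whether the genotype difference itself changed with rapamycin was tested as an interaction over all 12 TRAP libraries. Of 9174 loci, 175 (1.91%) passed the thresholds, 152 with a more positive genotype difference under rapamycin (1.66%) and 23 with a more negative one (0.251%), and 12 loci (0.131%) had an adjusted p under 0.05. These counts rested on the zeros of the treated controls. At 101 of the loci tested, all 3 controls under rapamycin were at 0 and the other 9 libraries were above 0. Of these 101, 74 passed the thresholds, and they held 10 of the 12 at an adjusted p under 0.05. No locus had the same pattern for any of the other 3 groups. The number at an adjusted p under 0.05 was 32, 72 and 186 without treated control 1, 2 and 3. It was 0 without any of the treated mutants 1, 2 and 3, and also 0 after rescaling to equal totals. That rescaling raised untreated mutant 3 strongly, with its summed PC markers going from 11388 to 49340. Those of untreated mutants 1 and 2 fell from 12457 and 12948 to 8832 and 9392. The part of that library in the lost interactions was not tested.

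Of the 12, 5 had a name, and apart from Pitrm1 they were singled out after their values were seen. Rad50, part of the complex that senses breaks in DNA, was at 0 in the 3 treated controls and at 3.33, 2.95 and 3.07 in the treated mutants. Untreated controls had 4.36, 3.38 and 3.04 and untreated mutants 1.57, 2.00 and 1.90, so that the order of the genotypes was opposite in the 2 pairs of groups (interaction adjusted p = 0.0312). Khdc3, known for its role in the early embryo, was at 0 in the treated controls and at 2.68, 3.98 and 3.07 in the treated mutants, against 4.42, 3.89 and 3.95 and then 3.15, 3.33 and 3.38 without rapamycin (adjusted p = 0.0342). Sec22a, a protein of vesicle traffic out of the endoplasmic reticulum, had 2.68, 2.68 and 2.23 in the treated mutants and 0 in their controls, with 2.97, 3.19 and 3.60 in untreated controls and 2.30, 2.00 and 2.47 in untreated mutants (adjusted p = 0.0382). For all of these the treated controls were the only group at 0. A locus overlapping the protocadherin gene Pcdhb16 showed the same order. These 4 loci stayed under the level filter in the rapamycin pair alone and were tested only for the interaction.

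The loci that differed between genotypes without rapamycin kept their direction in part. Without rapamycin, 189 of 9658 loci (1.96%) passed the thresholds (0.942% higher and 1.01% lower in mutants), and 0.0725% had an adjusted p under 0.05. Of these, 42 fell under the level filter in the treated libraries and 147 were tested there, and 105 of the 147 (71.4%) had a difference of the same sign, against 53.9% of all 8285 loci tested in both. The 2 comparisons share no library. Only 3 loci passed in both, each with the same sign: Msrb1, the locus antisense to E030025P04Rik, and an unnamed one that was lower by 2.62 with and 2.01 without rapamycin on the log2 scale. Msrb1 and the E030025P04Rik locus had all treated controls at 0, so under rapamycin they had to be higher in mutants. Of 63 loci that were higher in untreated mutants, 43 were above 0 under rapamycin, a share near the 63.0% of all loci. Of the 63, 8 were higher at p under 0.05 (3.88% of all loci). Their median was 0.70 against 2.04 without rapamycin, beside 0.32 over all loci under rapamycin. Of 84 that were lower, 62 were below 0 (37.0% of all loci) and 12 were lower at p under 0.05 (1.62% of all loci), with a median of -0.79 against -2.02. The lower set leaned on small RNAs. Without the 30 loci of the 5S and small RNA lists, 32 of 54 were below 0 (37.0% of all loci) and the median was -0.25.

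**Figure D4:**
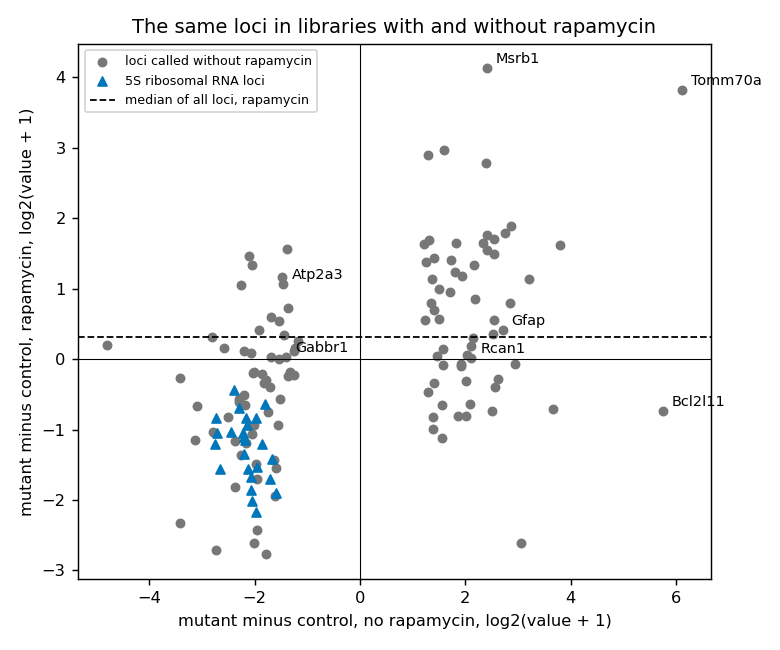
Genotype difference under rapamycin (y) against that without rapamycin (x), both as mutant minus control in log2(value + 1), for 145 of the 147 loci called without rapamycin and tested in both; 2 lie beyond the axes. The 5S loci (triangles) stayed below 0, Bcl2l11 lay below 0 under rapamycin, and the dashed line is the median of 0.32 over all loci.

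The 10 stress and apoptosis genes tested had an interaction median of -1.58, beside 0.33 over all loci. Of these, 5 are in a file of the study that lists loci called in untreated TRAP, and 9 in one that lists changes of translation efficiency, so how they got a name in part fixed the untreated values and, through them, the interaction. The interaction passed the thresholds at 2 of the 10 as more negative (0.251% of all loci) and at 1 as more positive (1.66%). Without rapamycin 5 of the 10 members tested rose in mutants (0.942% of all loci), with a list median of 1.97, which is no independent evidence of a rise. Under rapamycin none passed the thresholds (background 1.23%), 6 of 10 were above 0 and the median was 0.43, near the 0.32 of all loci. The other 7 of the 17 members with a locus were too low to be tested under rapamycin.

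Bcl2l11 encodes BIM, which triggers the mitochondrial route of apoptosis. Under rapamycin controls had 0, 4.58 and 3.44 and mutants 2.21, 0 and 3.59. The groups overlapped and each had a library at 0 (limma adjusted p = 0.929). Untreated controls had 1.43, 1.17 and 0, and untreated mutants 7.07, 6.31 and 6.47, far above every other library (limma adjusted p = 0.00917). The interaction passed the thresholds (fitted value -6.49, limma adjusted p = 0.24), also after rescaling to equal totals (-7.24). Among the settings that tested it, it was lost only with a pseudocount of 0.1 (-8.10). The limit on the naming of this list holds here too.

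Rcan1, an inhibitor of the phosphatase calcineurin, had 5.33, 4.58 and 3.73 in treated controls and 4.25, 4.41 and 5.02 in treated mutants, a log2 fold change of 0.01 ± 0.63 (SE; limma adjusted p = 0.998). In untreated animals it was 2.11 ± 0.34 higher in mutants (limma adjusted p = 0.188), and the interaction of -2.10 ± 0.68 missed the threshold (adjusted p = 0.533).

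Other members kept more of their difference. Srxn1, which repairs oxidised peroxiredoxins, had 4.98, 4.96 and 5.42 in controls and 6.25, 5.76 and 5.90 in mutants under rapamycin, without overlap (log2 fold change 0.85 ± 0.51, limma adjusted p = 0.873). Its untreated difference was 2.19 ± 0.43 (limma adjusted p = 0.228), and the interaction was -1.34 (adjusted p = 0.824). Hspa14, a chaperone linked to ribosomes, differed by 1.65 ± 1.01 under rapamycin (limma adjusted p = 0.873) and by 1.82 ± 0.32 without (limma adjusted p = 0.188). Its treated controls spread widely, at 5.72, 3.83 and 1.79, against 5.64, 5.22 and 5.44 in mutants.

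Hspa5, the main chaperone of the endoplasmic reticulum, ran the other way. Treated controls had 4.53, 5.25 and 6.09 and treated mutants 6.57, 6.49 and 6.85, with no overlap (log2 fold change 1.35 ± 0.60, limma adjusted p = 0.869). Untreated controls had 6.72, 6.88 and 6.56 and untreated mutants 6.20, 5.66 and 5.98, also without overlap but in the opposite order. The interaction of 2.12 ± 0.65 passed the thresholds (limma adjusted p = 0.457). It did not pass after rescaling to equal totals (1.30, or 1.47 without the 10 highest loci) or with the replicate block (2.12). Nor did it pass without control 1 (1.74), control 2 (2.10), mutant 1 (2.15), mutant 2 (2.19) or mutant 3 (2.01).

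No PC marker passed the thresholds under rapamycin. All 19 were tested, none had an unadjusted p under 0.05, and 13 were above 0, with a median of 0.21 and a range of -0.45 to 1.30. Pcp2, the gene that gives the L7 promoter, had 8.99, 10.67 and 10.29 in controls and 10.58, 10.65 and 10.63 in mutants (log2 fold change 0.64 ± 0.62, limma adjusted p = 0.875). Calbindin, Calb1, a calcium buffer, had 9.55, 9.61 and 10.32 in controls and 10.29, 10.49 and 10.34 in mutants (0.55 ± 0.52, limma adjusted p = 0.874). In both genes control 1 was the lowest library. Itpr1, the IP3 receptor, had 11.51, 11.15 and 11.67 in controls and 11.39, 11.86 and 11.53 in mutants (0.15 ± 0.51, limma adjusted p = 0.961), where untreated mutants were lower than untreated controls by 1.03 ± 0.32 on the log2 scale (limma adjusted p = 0.551). The carbonic anhydrase-related protein Car8 and the RGS protein Rgs8 differed by -0.15 ± 0.49 and 0.18 ± 0.49. Without rapamycin the marker median was -0.39, and the interaction was above 0 at 17 of the 19 markers (61.9% of all loci), with 2 of them at an unadjusted p under 0.05 (Itpr1 among them, against 4.51% of all loci) and a list median of 0.59 beside 0.33 over all loci. Of the 19, 16 are in the study's list of translation efficiency changes and 2 in that of untreated TRAP calls. How they got a name thus in part fixed the untreated values and the interaction. The same limit holds for most members of the calcium, synaptic, channel, mitochondrial, proteasome and transport lists below.

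Calcium handling held 23 tested genes, of which Orai2, listed at 0 in all 3 controls, alone rose (0.962% of all loci) and 19 were above 0 (63.0% of all loci), with a median of 0.25. The pump Atp2a3 (SERCA3), which returns calcium to the endoplasmic reticulum, had 5.15, 5.58 and 6.80 in treated controls and 6.70, 7.40 and 6.60 in treated mutants. The groups overlapped (log2 fold change 1.06 ± 0.65, limma adjusted p = 0.873). Without rapamycin controls had 7.48, 7.21 and 7.14 and mutants 5.95, 5.86 and 5.66, a fall in mutants of -1.46 ± 0.32 (limma adjusted p = 0.292). The interaction passed the thresholds (2.52 ± 0.69, limma adjusted p = 0.345), but not after rescaling to equal totals (1.70, or 1.87 without the 10 highest loci) or without mutant 2 (2.27). The calcium channel Cacna1g and the kinase Camk2b differed by 0.21 and 0.08 under rapamycin, each within 1 SE of 0.

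Of 18 postsynaptic genes none passed the thresholds, 14 were above 0 and the median was 0.39. Gabbr1, a subunit of the GABA-B receptor, had 8.45, 8.81 and 8.61 in treated controls and 8.63, 8.36 and 8.96 in treated mutants, a difference of 0.03 ± 0.51 (limma adjusted p = 0.992). The untreated mutants, at 7.73, 7.81 and 7.81, lay below all other libraries, with untreated controls at 9.35, 8.94 and 9.27 (limma adjusted p = 0.323), and the interaction was 1.43 ± 0.53 (adjusted p = 0.722). Its partner Gabbr2 gave 1.35 ± 0.81 under rapamycin (limma adjusted p = 0.873), with control 1 lowest at 4.11, and an interaction of 2.37 ± 0.87 (adjusted p = 0.704). The scaffolds Shank2 and Dlg2 did not overlap between the groups, with controls at 7.44, 8.26 and 8.17 and mutants at 8.50, 8.62 and 9.16 for Shank2, yet the differences of 0.81 ± 0.55 and 0.46 ± 0.50 missed the test (limma adjusted p = 0.873 and 0.883).

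Grin2b, a subunit of the NMDA receptor, was the member furthest in the other direction. It had 5.49, 3.64 and 3.73 in treated controls and 2.21, 1.89 and 2.23 in treated mutants. Each mutant was below each control (log2 fold change -2.18 ± 0.68, limma adjusted p = 0.846). Untreated libraries were low, at 0.89, 3.46 and 0 in controls and 1.57, 1.33 and 2.39 in mutants, and were not tested.

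Among 15 presynaptic and GABA genes, 12 were above 0 (median 0.19) and none passed the thresholds. The genes that make and load GABA had differences of both signs. Gad1 had 7.63, 7.27 and 8.36 in controls and 8.29, 8.46 and 7.76 in mutants (0.42 ± 0.57, limma adjusted p = 0.9). Gad2 had 4.64, 0 and 0 in controls and 6.01, 5.42 and 5.82 in mutants (limma adjusted p = 0.846), and the untreated controls listed it at 0 in all 3 libraries. The vesicular transporter Slc32a1 had 6.10, 6.16 and 6.20 in controls and 4.95, 5.34 and 5.54 in mutants, lower in each mutant than in each control by -0.88 ± 0.50 (limma adjusted p = 0.873).

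Of 8 potassium, sodium and HCN channel genes tested, none passed the thresholds under rapamycin and the median was 0.10. The A-type potassium channel Kcnd3 had 5.96, 5.32 and 5.56 in treated controls and 4.81, 4.21 and 4.28 in treated mutants, with no overlap (log2 fold change -1.18 ± 0.53, limma adjusted p = 0.869). Untreated controls had 4.36, 5.15 and 5.01 and untreated mutants 5.95, 5.90 and 5.49, also without overlap and with the opposite sign. The interaction of -2.12 ± 0.59 passed the thresholds (limma adjusted p = 0.355), but not after rescaling to equal totals (-2.91), or without mutant 2 or mutant 3 (-2.04). It was also lost with limma-voom (-1.95) and with the replicate block (-2.12).

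The mTOR list and the translation list, which hold genes on the pathway that rapamycin blocks, showed no call under rapamycin. Of 9 mTOR genes 5 were above 0 (median 0.09). Fkbp1a, whose protein binds rapamycin, had 7.76, 7.92 and 7.92 in controls and 7.87, 7.91 and 8.08 in mutants, a difference of 0.09 ± 0.49 (limma adjusted p = 0.981). Ddit4, which restrains mTORC1 through the TSC complex, had 4.69, 3.74 and 4.99 in controls and 3.95, 1.89 and 3.80 in mutants (-1.26 ± 0.77, limma adjusted p = 0.873). The groups overlapped at both.

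Of 11 translation genes 7 were above 0 (median 0.22). The elongation factor Eef1a2 had 9.18, 9.59 and 9.43 in controls and 9.58, 9.59 and 9.44 in mutants, and Larp1, which binds mRNAs of the translation machinery, had 6.11, 6.20 and 6.53 against 6.27, 6.62 and 6.65. The ribosomal protein genes Rps16 and Rpl37 differed by -0.92 ± 0.74 (limma adjusted p = 0.873) and 0.37 ± 0.69 (limma adjusted p = 0.924). The groups overlapped at all of these genes.

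Mitochondrial genes had the highest list median under rapamycin, 0.72 over 22 tested genes, of which 17 were above 0 and only Pitrm1 passed the thresholds (1.23% of all loci). The list counted 7, 3 and 3 loci at 0 in controls 1, 2 and 3 and 0, 1 and 0 in mutants, out of 23 found. Its untreated median was 0.69, which is no independent evidence, since all 22 are in the study's list of translation efficiency changes. Oxct1, an enzyme of ketone use, had 6.36, 5.76 and 7.004 in controls and 7.63, 7.98 and 7.49 in mutants, without overlap (1.33 ± 0.57, limma adjusted p = 0.869). Idh3a, an enzyme of the citric acid cycle, and Gdap1, of the outer membrane, also did not overlap (0.98 ± 0.67 and 1.01 ± 0.65, limma adjusted p = 0.873 for both). Pink1, the kinase that marks damaged mitochondria, gave -0.03 ± 0.57.

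The proteasome genes (14 tested, 10 above 0, median 0.29) and the neurofilament, microtubule and transport genes (16 tested, 12 above 0, median 0.25) held no call, and their medians lay near that of all loci. Untreated, their medians were 0.70 and 0.68, which is no independent evidence, since all their tested members are in the study's translation efficiency list. Of 16 genes of the RNA exosome and its cofactors, 7 were above 0 (median -0.16). Wdr61, part of the cofactor that feeds RNA to the cytoplasmic exosome, had 0.97, 2.66 and 2.41 in controls and 4.02, 4.50 and 3.98 in mutants, with no overlap (2.15 ± 0.65, limma adjusted p = 0.846). The nuclear exonuclease Exosc10 had 3.85, 4.29 and 4.57 in controls and 4.90, 4.41 and 5.02 in mutants (0.54 ± 0.53, limma adjusted p = 0.875). It differed by -0.996 in untreated mutants (limma adjusted p = 0.589).

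**Figure D5:**
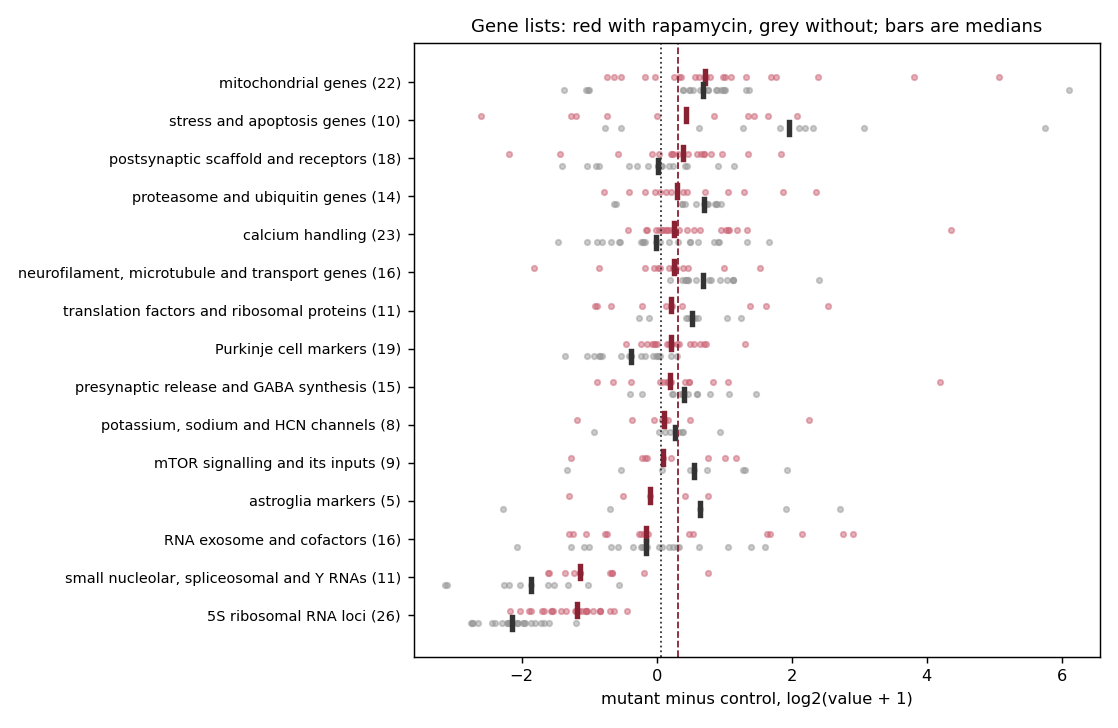
Genotype difference (mutant minus control, log2(value + 1)) of each tested member of the lists with 5 or more tested loci, with rapamycin (red) and without (grey), bars at list medians, the dashed line at the median of 0.32 over all loci with rapamycin and the dotted line at that without. The 5S and small RNA lists lay below 0 with medians of -1.17 and -1.13, and the stress list was at 0.43 with and 1.97 without rapamycin.

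The loci of the 5S ribosomal RNA were lower in mutants under rapamycin at every tested member, though none passed the thresholds. 5S RNA is the small RNA of the large ribosomal subunit, made by RNA polymerase III, and a genome carries many copies and degenerate copies of its gene. Sequences of 3 of the 26 loci, from GENCODE transcripts of GRCm38, show how alike they are. They are an abundant copy and the 2 with the lowest p, and capitals mark a run of 15 bases that 16 of the 25 sequences compared hold.
n-R5s56: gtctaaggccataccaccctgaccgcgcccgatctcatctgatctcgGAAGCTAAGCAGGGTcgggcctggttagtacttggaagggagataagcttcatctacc
n-R5s88: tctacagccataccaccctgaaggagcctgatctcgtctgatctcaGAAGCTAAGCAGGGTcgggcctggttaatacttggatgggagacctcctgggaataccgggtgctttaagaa
n-R5s205: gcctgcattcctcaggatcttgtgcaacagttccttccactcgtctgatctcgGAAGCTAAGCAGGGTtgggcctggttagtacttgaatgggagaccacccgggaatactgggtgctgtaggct

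These lie at chr13:103396202-103396306 (plus), chr9:102127888-102128005 (plus) and chr2:120640711-120640835 (minus). Over all 300 pairs of the 25 sequences identity ran from 59.8% to 94.1%, with a median of 80.0%. How often reads of one copy were counted at another was not tested, so the loci are not taken as independent measurements.

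All 26 loci, on 17 chromosomes, were below 0 under rapamycin, with a median of -1.17 and a range of -2.17 to -0.44, and 6 were at p under 0.05 (1.62% of all loci were lower at that level). n-R5s88 had 8.43, 8.41 and 7.53 in controls and 5.69, 7.07 and 6.04 in mutants, with no overlap (-1.86 ± 0.63, limma adjusted p = 0.846). n-R5s205 had 4.69, 4.22 and 3.44 in controls and 2.21, 2.95 and 1.51 in mutants (-1.90 ± 0.65, limma adjusted p = 0.848). Summed over the list, deposited values were 2543, 12441 and 6992 in controls and 2129, 5073 and 1907 in mutants, and the groups overlapped (exact permutation test p = 0.2). Without rapamycin 25 of the 26 fell in mutants (1.01% of all loci), with a median of -2.14. This count is no independent evidence, since 25 of the 26 are in the study's file of loci called in untreated TRAP, which gave them a name. The interaction median was 1.06 and no single locus passed its test at p under 0.05.

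The small nucleolar, spliceosomal and Y RNAs showed a like order. Of 11 tested, 10 were below 0, with a median of -1.13 against -1.87 without rapamycin, where 3 of the 11 had been listed by the study as called, and none passed the thresholds under rapamycin. Rnu3a, the U3 RNA of ribosomal RNA processing, had 8.08, 8.78 and 8.59 in controls and 7.06, 7.13 and 6.42 in mutants, without overlap (-1.61 ± 0.54, limma adjusted p = 0.846). Rny3 had 7.34, 12.55 and 12.33 in controls and 10.13, 10.89 and 9.12 in mutants, and here control 1 stood far below its group (-0.69 ± 1.47, limma adjusted p = 0.938). Control 1 listed 4 of the 11 loci at 0 and no other treated library listed any.

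Few markers of other cell types were high enough to be tested under rapamycin. They were 5 of 9 astroglial, 1 of 15 microglial, 3 of 5 oligodendrocyte, 2 of 13 vascular and 0 of 24 motile cilia loci. None of those tested passed the thresholds. Which of the marker sums overlapped between the treated genotypes depended on scaling. Summed deposited values of the 9 astroglial genes found were 977, 1106 and 1475 in treated controls and 1670, 2227 and 1839 in treated mutants, higher in each mutant (exact permutation test p = 0.1, the smallest possible). The ratio of the means was 1.61, and it was 1.17 after rescaling to equal totals, where the groups overlapped (exact permutation test p = 0.5). Most of this sum was Aldoc, which PCs express too, with 9.69, 9.99 and 10.36 in controls and 10.56, 11.05 and 10.69 in mutants (0.76 ± 0.52, limma adjusted p = 0.873). Single astroglial members went both ways. Of the 5 tested under rapamycin, 2 were above 0 and 3 below 0, with a median of -0.10 and a range of -1.30 to 0.76. Without rapamycin 2 of 5 tested rose in mutants (0.942% of all loci) and 1 fell (1.01%), with a range of -2.27 to 2.71. Gfap, the filament of reactive astrocytes, had 5.33, 3.54 and 5.10 in treated controls and 5.07, 4.58 and 5.56 in treated mutants, which overlapped (0.41 ± 0.69, limma adjusted p = 0.914). In untreated libraries it rose in mutants, from 4.17, 5.51 and 4.57 to 7.81, 7.12 and 7.45 (2.71 ± 0.45, limma adjusted p = 0.188; interaction -2.30 ± 0.82, adjusted p = 0.661). Apoe, a lipid carrier of glia, had 6.30, 5.32 and 5.99 in treated controls and 5.70, 4.89 and 6.73 in treated mutants (-0.10 ± 0.68, limma adjusted p = 0.984), with an untreated rise of 1.92 ± 0.49 (limma adjusted p = 0.392). Its interaction was -2.02 ± 0.83 (adjusted p = 0.781).

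Microglial genes summed to 24.9, 34.5 and 64.0 in treated controls and 7.24, 13.97 and 25.8 in treated mutants (exact permutation test p = 0.2), a ratio of the means of 0.381. After rescaling to equal totals they were 21.5, 34.0 and 79.3 in controls and 6.03, 11.5 and 16.5 in mutants, lower in each mutant, with a ratio of 0.252 (exact permutation test p = 0.1, the smallest possible). Of the 15 found, 13, 12 and 10 were at 0 in controls and 11, 12 and 8 in mutants, and Tyrobp, a defining marker, was at 0 in all 6. Untreated mutants had 102, 55.7 and 58.8, with 3, 3 and 0 of the 15 at 0. Oligodendrocyte genes summed to 87.1, 124 and 63.4 in treated controls and 121, 99.7 and 81.2 in treated mutants (exact permutation test p = 0.8), vascular genes overlapped likewise (exact permutation test p = 0.7), and of 24 motile cilia genes 17 to 24 were at 0 in each treated library (exact permutation test p = 0.5 for their sum). PC markers summed to 11063, 11465 and 12039 in controls and 12383, 13027 and 13686 in mutants, higher in each mutant (exact permutation test p = 0.1), but the ratio of the means turned from 1.13 to 0.83 after rescaling to equal totals.

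Most calls had no name, and 2 decreases among high loci are given by the identifier of the assembled locus. They were picked from the calls themselves. XLOC_028160 had 13.89, 13.72 and 12.72 in controls and 10.59, 11.86 and 10.73 in mutants (-2.38 ± 0.64, limma adjusted p = 0.777). Without rapamycin it differed by -2.12, also without overlap (limma adjusted p = 0.52). XLOC_039569 had 12.28, 10.64 and 10.08 in controls and 7.36, 8.25 and 5.79 in mutants (-3.87 ± 0.90, limma adjusted p = 0.579). Without rapamycin it differed by -1.69, and those groups overlapped (limma adjusted p = 0.672). Under rapamycin both passed the thresholds, all 6 libraries detected both, and each mutant was below each control.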

How the data were processed

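Per the labels and the paper, the authors immunoprecipitated GFP-tagged ribosomes and trimmed reads with Trimmomatic 0.39. They aligned the reads to GRCm38 with STAR 2.7.0f and quantified loci assembled from sorted PCs with Cufflinks 2.2.1. The labels name a SMART-Seq kit for all libraries, but the paper names it for sorted PCs only and gives no kit for TRAP. The paper also names library preparation as a possible confounder between sorted and TRAP RNA. The deposited unit is a signal, the estimated fragments at each locus divided by a size factor for each library. Dividing the values of each library by a step estimated from them gave depth in fragments. Not all values were whole multiples of the step, so they were not tested as counts in the main fit.

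Here log2(value + 1) was fitted with limma 3.58.1 in R 4.3.3, for loci with a mean of 2 or more, using the 6 treated libraries (all 12 for the interaction). P-values measure the spread between 3 animals of each genotype. Tsc1 had no named locus, so the genotypes could not be checked on it. Named loci are those past both thresholds without overlap, plus members of 19 fixed gene lists. The comparison, the lists and the other genes were chosen with earlier results of these data known. Supplementary files name 1832 of 66494 loci, largely genes that the study selected, and only matches in sense were used unless stated. Some list members and sequences are not reported here. On simulated data 200 of 10094 loci were changed 4-fold, part of them raised and part lowered, all at a mean level of 5 or more. Of these 102 were called, each in its own direction, and 82 unchanged loci were called too. The simulation did not build in the many zeros of the treated controls. Other scalings, pseudocounts, filters and fits, and leaving out each of the 6 treated libraries, were tried. No untreated library was left out, also for the interaction, so a control or mutant left out is always a treated one. Figures were drawn with matplotlib 3.10.9.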

Additional observations from a re-analysis of the deposited data

Results flagged for a closer look

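The 12 loci below had a genotype difference that changed with rapamycin, by the limma interaction over 12 TRAP libraries at an adjusted p under 0.05. Values are fitted differences of differences on the log2(value + 1) scale and not fold changes, since the 3 treated controls were listed at 0 at 10 or more of the 12. Among loci with a name they were 4.89 for Rad50, 4.11 for Pitrm1, 4.05 for Khdc3, 3.90 for the locus overlapping Pcdhb16 and 3.52 for Sec22a. The 7 unnamed loci had 5.87 (XLOC_006310), 5.11 (XLOC_031007), 4.45, 4.43, 4.41, 4.08 and 4.004. All 12 were more positive under rapamycin. None had an adjusted p under 0.05 after rescaling to equal totals, which raised the values of untreated mutant 3 strongly.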

How the results depend on the processing

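The count of 107 loci past the thresholds was 55 with a pseudocount of 0.1, 39 with a mean of 5 or more, 64 with the replicate block, 71 with limma-voom, 460 with no filter and 306 with all 4 TRAP groups in the fit, and 36 to 430 with each library left out. Loci at an adjusted p under 0.05 numbered 17, 35 and 4 with the pseudocount of 0.1, all 4 groups and limma-voom, and 1 to 2 with a library left out. The share of calls higher in mutants was 46.2% and 60.2% with equal totals and with equal totals without the 10 highest loci, 61.1% with quantile normalization, 62.2% with a pseudocount of 10, 92.8% with no filter, 25.6% with a mean of 5 or more, 44.9% with an intensity trend, 60.6% with limma-voom and 38.9% to 93.0% with a library left out. The median difference turned to -0.089 with equal totals, and was 0.0495 without the 10 highest loci, 0.10 and 0.46 with pseudocounts of 10 and 0.1, 0.50 with no filter, 0.0662 with a mean of 5 or more, 0.40 with limma-voom and 0.17 to 0.35 with a library left out. The share of untreated calls with the same sign was 63.5% with equal totals without the 10 highest loci and 63.5% to 76.5% with a library left out.

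For the interaction, loci at an adjusted p under 0.05 numbered 0 with equal totals, without the 10 highest loci, with quantile normalization, a mean of 5 or more, an intensity trend, the replicate block or limma-voom, 2 and 89 with pseudocounts of 10 and 0.1, and 0 to 186 with a library left out. Those past the thresholds numbered 28 with equal totals, 69 without the 10 highest loci, 95 with a pseudocount of 10, 393 with no filter, 20 with a mean of 5 or more, 101 with a trend and 133 to 529 with a library left out. The cause of these shifts was not tested. Only the 6 treated libraries were left out in turn, never an untreated one. With equal totals the ratio of mutant to control sums became 0.83 for PC, 1.17 for astroglial, 0.252 for microglial, 0.85 for oligodendrocyte, 0.691 for vascular and 1.08 for cilia markers, 0.31 for 5S loci and 0.24 for small RNAs.

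Replicate numbers 1 to 3 are shared by the groups, but same-numbered libraries did not deviate together (r = -0.034, -0.029 and -0.040, against -0.001 to 0.040 for other pairs), so the replicate block, under which 64 loci passed, 84.4% of them higher, is given only here. The marker sums were not analysed as pairs. With 2.47 to 4.89 M fragments a library, low loci are imprecise, and a level of 0 in 1 library does not show absence.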
